A study of Mus musculus with 8 samples.

Results

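ATF4 is the transcription factor through which cells answer a shortage of amino acids or an overloaded endoplasmic reticulum. Stress kinases phosphorylate the initiation factor eIF2, general translation slows, and the Atf4 mRNA, whose upstream reading frames otherwise hold ribosomes back, is translated more. ATF4 then binds amino acid response elements, usually with a partner of the C/EBP family, and switches on amino acid transporters, biosynthetic enzymes and many of the tRNA synthetases that charge tRNAs with amino acids. A regenerating liver, whose hepatocytes grow and divide, draws on the same transporters and synthetases for protein synthesis. The set described here held 34 genes, namely Atf4, known ATF4 targets and cytosolic tRNA synthetases, chosen by name out of 19055 genes in the table. They were chosen with earlier results of these data known. Genes were tested where 3 or more libraries reached a value of 10, and all 34 were among the 13704 that did.

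RNA came from whole livers of mice 8 to 9 weeks old, taken 48 hours after partial hepatectomy. The 3 control livers carried the genotype URI(+/+)Hep, and the 5 others the genotype URI(+/D)Hep. As written, +/D is a wild-type copy (+) beside a loss-of-function allele (D) of URI, a prefoldin-like protein encoded by Uri1. The allele was made by a tamoxifen-inducible Cre (creERT2) under serum albumin sequences, which restricts deletion to hepatocytes. The labels state 1 week of tamoxifen for every animal of both groups, and call the controls wild-type littermates. Values are normalized reads, that is, reads from the 3′ ends of transcripts, scaled to make libraries comparable. The labels number the replicates without saying that each was a separate animal, so p-values measure the spread between these samples.

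Depth lay between 3838674 and 4800694 reads per library, and a count of 3 reads corresponded to between 2.65 and 3.60 normalized reads. Uri1 did not separate the groups (384 ± 79.3 in controls, SD, n = 3, against 384 ± 42.7, SD, n = 5, limma adjusted p = 0.975, 95% interval of the log2 fold change -0.33 to 0.35), and a 3′ tag outside the deleted part would not show the deletion, so the groups are named by their labels. Libraries also differed in transcripts of sex and of cell division. Xist stood at 9.59 and 2.95 in controls 1 and 2 and between 1217 and 2357 in the other 6 libraries. Only controls were low in Xist, so a difference between the groups cannot be fully told apart from one in Xist. No covariate for Xist was fitted. The sum of 4 Y-linked genes was 3.54 in URI(+/D)Hep 1 and between 569 and 1558 in the other 7, so that 5 libraries (control 3 and URI(+/D)Hep 2 to 5) held both kinds of transcript, and whether each of these is a single animal was not tested. The summed level of 10 mitosis genes was 387 in control 1 and 589 in URI(+/D)Hep 5, against 2734 to 5690 in the rest. Markers of hepatocytes (5 of 6 genes in the table, none at 0) summed to between 23933 and 26365 in controls and between 23593 and 26674 in URI(+/D)Hep livers. Their mean on the log2 scale, relative to all libraries, did not overlap, at -0.12 to -0.08 against -0.0049 to 0.09. Of the 5, Cps1, the first enzyme of the urea cycle, lay higher in every URI(+/D)Hep liver (1586 ± 443 against 3175 ± 422, limma adjusted p = 0.108, DESeq2 adjusted p = 0.000483), and Alb, Apoa1, Ttr and Serpina1c overlapped.

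Some members carry an amino acid response element close to their start, and these sequences are shown first because such elements are what ATF4 is known to bind. RefSeq promoter windows (GRCm38.p6, 250 bases before to 50 after a start, a build other than the GRCm39 named for the deposited table) were matched for 27 of the 34 genes. The core motif TGATGNAA, searched on both strands so that it also reads TTNCATCA, was present in a window of 11 of the 27 genes (40.7%). It occurred in 4.51% of all 27025 genes with a window, and in 3.97% of 32851 windows against 11 of 30 windows (36.7%) of the members. A longer form, TGATGCAAT, which overlaps the core, was present in 3 of 27 members (Aars, Iars and Nupr1) and in 0.22% of all genes. The genes were listed as ATF4 targets, so these shares describe the choice of genes, and a match is no evidence of binding.

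Of the members with the motif in a window, the 6 with the smallest limma p are printed below. They read 5′ to 3′ on the strand of the gene, with the motif in capitals. Positions count from 1 at the RefSeq start, with negative numbers upstream. For Asns, Gars and Aars the 250 bases before the start are given (Asns chr6:7693210-7693459, minus strand, motif at -23, Gars chr6:55037751-55038000, plus strand, motif at -30, Aars chr8:111033592-111033841, plus strand, motif at -112).
Asns: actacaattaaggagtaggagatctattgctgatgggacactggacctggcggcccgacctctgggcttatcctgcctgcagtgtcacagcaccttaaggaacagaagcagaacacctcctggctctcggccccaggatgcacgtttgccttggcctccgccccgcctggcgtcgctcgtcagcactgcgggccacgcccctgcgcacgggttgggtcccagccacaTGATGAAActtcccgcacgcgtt
Gars: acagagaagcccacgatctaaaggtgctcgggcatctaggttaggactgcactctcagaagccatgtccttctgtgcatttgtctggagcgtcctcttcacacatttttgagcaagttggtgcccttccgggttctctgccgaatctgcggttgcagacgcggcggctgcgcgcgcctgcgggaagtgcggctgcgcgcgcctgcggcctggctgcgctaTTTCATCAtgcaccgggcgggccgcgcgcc
Aars: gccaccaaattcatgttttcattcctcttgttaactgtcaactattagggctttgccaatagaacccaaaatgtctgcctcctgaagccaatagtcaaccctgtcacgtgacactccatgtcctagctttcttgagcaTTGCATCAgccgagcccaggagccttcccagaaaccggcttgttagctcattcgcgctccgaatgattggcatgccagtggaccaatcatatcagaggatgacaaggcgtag
In Trib3, Iars and Yars the motif lay just past the start, and 30 bases around it are given (Trib3 chr2:152344028-152344057, minus strand, motif at 15, Iars chr13:49682126-49682155, plus strand, motif at 8, Yars chr4:129189895-129189924, plus strand, motif at 4).
Trib3: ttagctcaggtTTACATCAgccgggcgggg
Iars: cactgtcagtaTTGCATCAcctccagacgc
Yars: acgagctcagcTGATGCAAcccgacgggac
Asns has the form with an A at the open position of the core, read on the strand of the gene. Yars carries a C there on that strand. Gars, Aars, Trib3 and Iars hold the motif on the opposite strand, and Aars has another match at 10, past its start. The window of Atf4 held no match, nor did those of Ddit3, Slc3a2 and Ddit4. No window was found for Slc7a5, Cars, Wars, Lars, Nars, Cth and Slc1a5, so these were not searched.

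**Figure D1:**
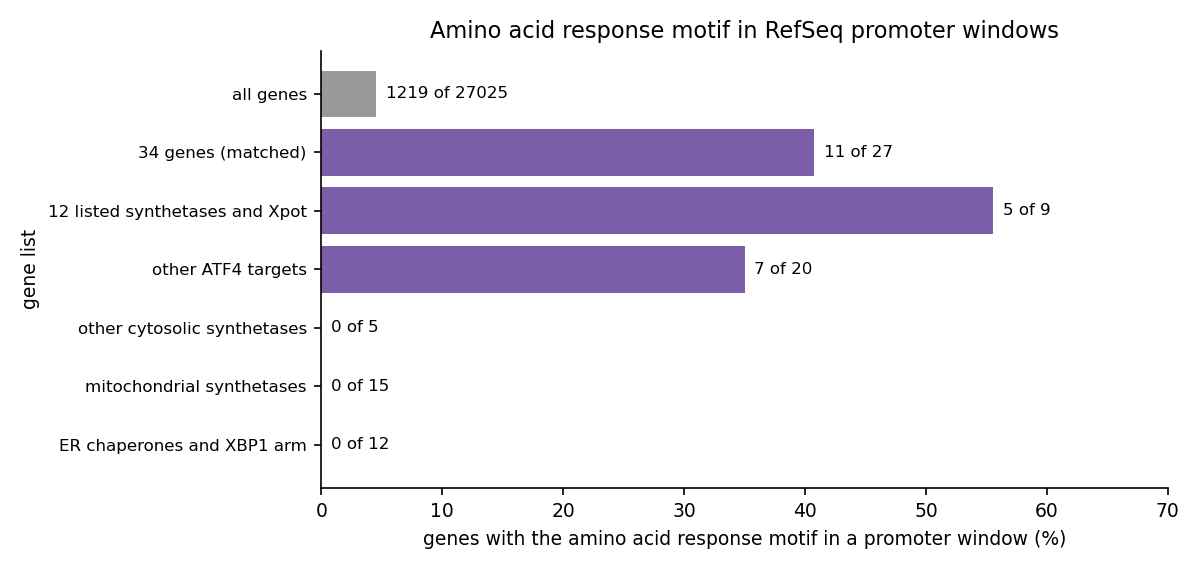
Share of genes (%, x axis) with the amino acid response motif in a RefSeq promoter window, by gene list, with the number of genes holding it beside each bar. It was found in 11 of 27 matched members and 7 of 20 other ATF4 targets, and in 0 of 15 mitochondrial and 0 of 5 other cytosolic synthetases.

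Most of the 34 genes had a lower mean in URI(+/D)Hep livers, and no single gene passed the test over all genes. Limma on log2(value + 1) called 0 members lower and 0 higher at an adjusted p under 0.05, against 2 lower (0.0146%) and 0 higher (0%) of the 13704 genes. Of the 34 members 27 had a negative log2 fold change (79.4%), against 50.2% of all genes tested, and the median was -0.23 against 0.00 over all genes (-0.0019 unrounded). The members were chosen with earlier results of these data known, so these shares and those that follow are no independent evidence. At an unadjusted p under 0.05, 8 members were lower (Trib3, Slc7a5, Atf4, Ddit4, Asns, Iars, Slc3a2 and Gars) and 0 were higher, where 9.33% of all genes were lower and 8.35% higher. All 5 URI(+/D)Hep libraries lay below all 3 controls for 5 members, Trib3, Slc7a5, Atf4, Asns and Slc3a2, and above them for 0, against 7.30% and 6.13% of all genes. The count of 8 became 5 without control 2 and 5 without URI(+/D)Hep 3.

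Other tools placed the first members differently around the threshold. On recovered whole reads DESeq2 called Trib3, Slc7a5 and Atf4 lower (3 of the 28 members to which it gave an adjusted p) and 0 members higher. Of all 9171 genes to which it gave an adjusted p, it called 4.10% lower and 2.57% higher. Quasi-likelihood testing in edgeR called 0 members lower and 0 higher, against 0.0219% and 0% of all genes. With the mean level of the mitosis genes as a covariate, limma called 4 members lower, Trib3, Slc7a5, Atf4 and Ddit4, and 0 higher, where 1.17% of all genes were called lower and 0.737% higher.

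**Figure D2:**
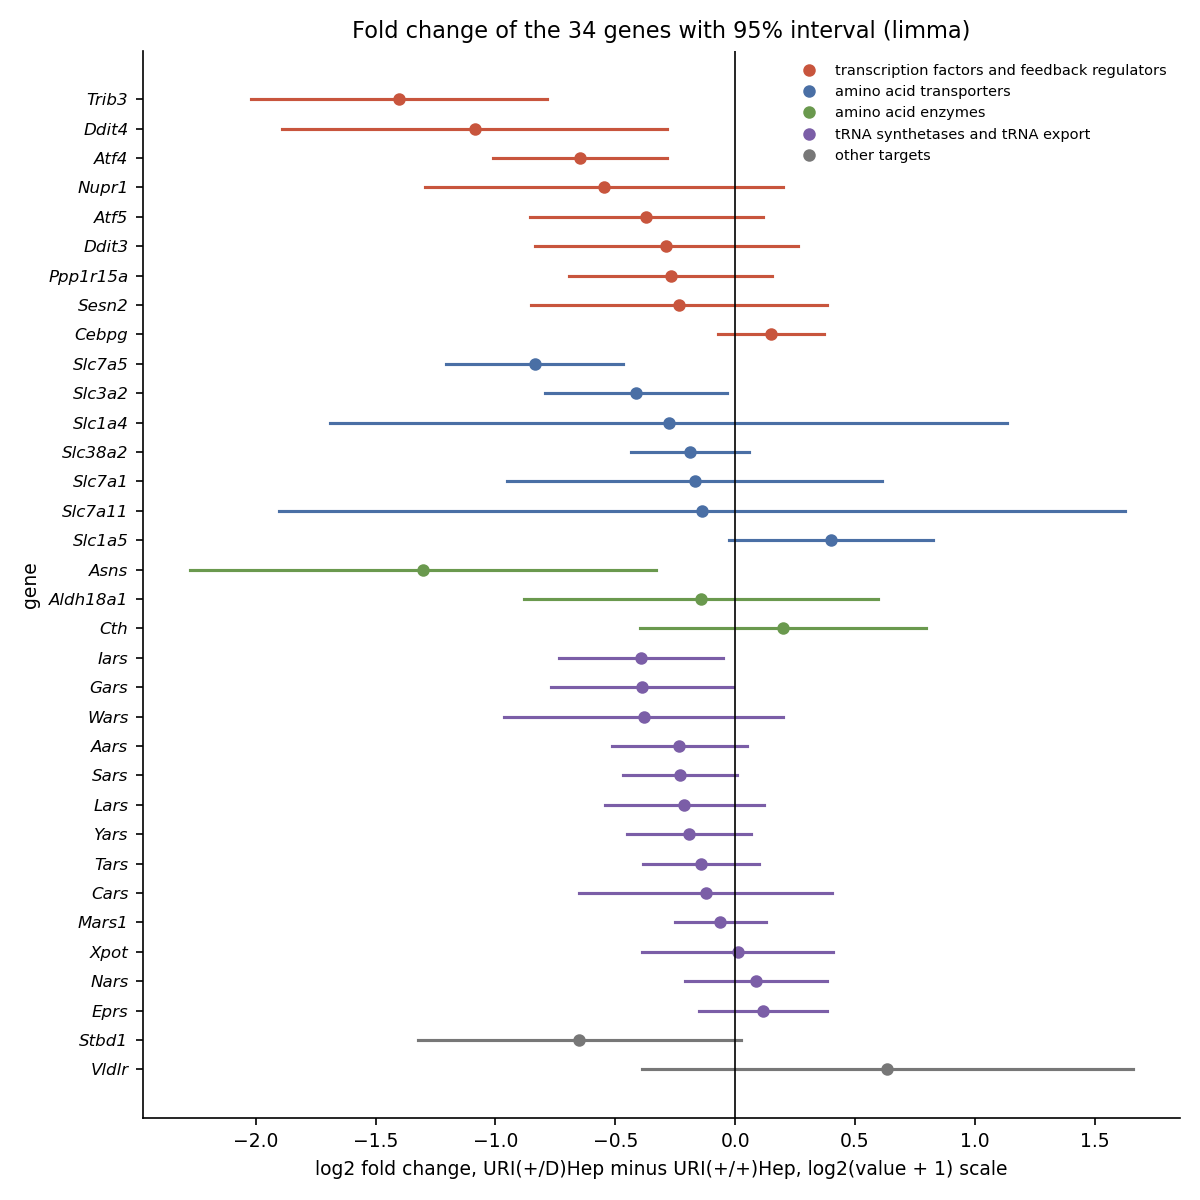
Log2 fold change (x axis, log2(value + 1) scale, URI(+/D)Hep minus control) of the 34 genes (y axis), coloured by role, with dots for the limma estimate and lines for the 95% interval. Trib3, at -1.40, lies lowest in this fit, 7 genes lie above 0, and the intervals of 8 genes lie wholly below 0.

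Among the 9 regulators 8 were negative, and their median was -0.37 on the log2 scale. Atf4 stood at 1830.1, 1408 and 1461 normalized reads in controls 1 to 3 and at 926, 852, 1219, 847 and 1183 in URI(+/D)Hep livers 1 to 5. The highest of the 5 livers lay below the lowest control, and the mean was 0.642 times that of the controls (log2 fold change -0.65, SE 0.16, 95% interval -1.01 to -0.28, limma adjusted p = 0.12). DESeq2 gave Atf4 an adjusted p of 0.0184.

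Trib3, a pseudokinase that ATF4 induces and that binds ATF4 and restrains it, had the lowest log2 fold change of the 34 in the fit to all libraries, though Asns lay lower under 8 alternatives, such as the replicate block (-1.58 against -1.44). It stood at 115, 78.8 and 101 in the controls and at 38.9, 21.3, 52.2, 36.5 and 38.6 in URI(+/D)Hep livers. Every one of the 5 livers was below every control, and the mean was 0.382 times the control mean (98.2 ± 18.3, SD, n = 3, against 37.5 ± 10.98, SD, n = 5). On the log2 scale this was -1.40 with an SE of 0.27 (adjusted p = 0.109 in limma and 0.000713 in DESeq2).

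Ddit4, which encodes REDD1, an inhibitor of mTORC1 signalling, stood at 314, 211 and 136 in the controls. In URI(+/D)Hep livers it stood at 55.7, 103, 109, 85.2 and 165. The groups overlapped, since URI(+/D)Hep 5 exceeded control 3 (log2 fold change -1.09, SE 0.36, limma adjusted p = 0.177). With the share of Y-linked reads as a covariate the log2 fold change of Ddit4 was -0.61, and over 23 alternatives it ran from -1.39 to -0.28. Control 1 and URI(+/D)Hep 5, the highest of their groups for this gene, were also the libraries with the least mitosis transcripts, and the part of that in the values was not tested beyond the covariate above.

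Ddit3, which encodes the stress factor CHOP, overlapped between the groups. It stood at 148, 193 and 319 in the controls and at 209, 140, 183, 185 and 146 in URI(+/D)Hep livers. The control range enclosed 3 of the 5 values of the other group, and control 3 was the highest library. The difference on the log2 scale, -0.29 with an SE of 0.24 (limma adjusted p = 0.573), was 0.02 without control 3, -0.54 without control 1, -0.57 with the Y-linked covariate and -0.97 in the 5 libraries with reads of both Xist and Y-linked genes. How Ddit3 differed from Atf4 was not tested. Exons of Ddit3 overlap those of Mars1 on the opposite strand in GENCODE M21. The libraries keep strand, but the sources used here do not give the strand setting of the counting, so reads of the 2 genes may not be fully separated.

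The remaining regulators varied around smaller differences. Atf5, a related factor under like translational control, stood at 3583 ± 1252 in controls and 2675 ± 370 in URI(+/D)Hep livers, with control 3 highest at 4880.3. Nupr1, a small stress-induced nuclear protein, stood at 54.0, 55.1 and 64.4 in controls and between 25.9 and 38.0 in URI(+/D)Hep 1 to 4, while URI(+/D)Hep 5, at 81.1, was the highest library of all. Ppp1r15a, the phosphatase subunit that reverses eIF2 phosphorylation, had a log2 fold change of -0.27 and Sesn2, a leucine sensor that holds back mTORC1, had a log2 fold change of -0.23. Cebpg, a dimer partner of ATF4, was the only regulator of the 9 with a positive value, 0.15 (298 ± 21.7 against 331 ± 19.1). None of these 5 passed limma (adjusted p between 0.398 and 0.692).

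**Figure D3:**
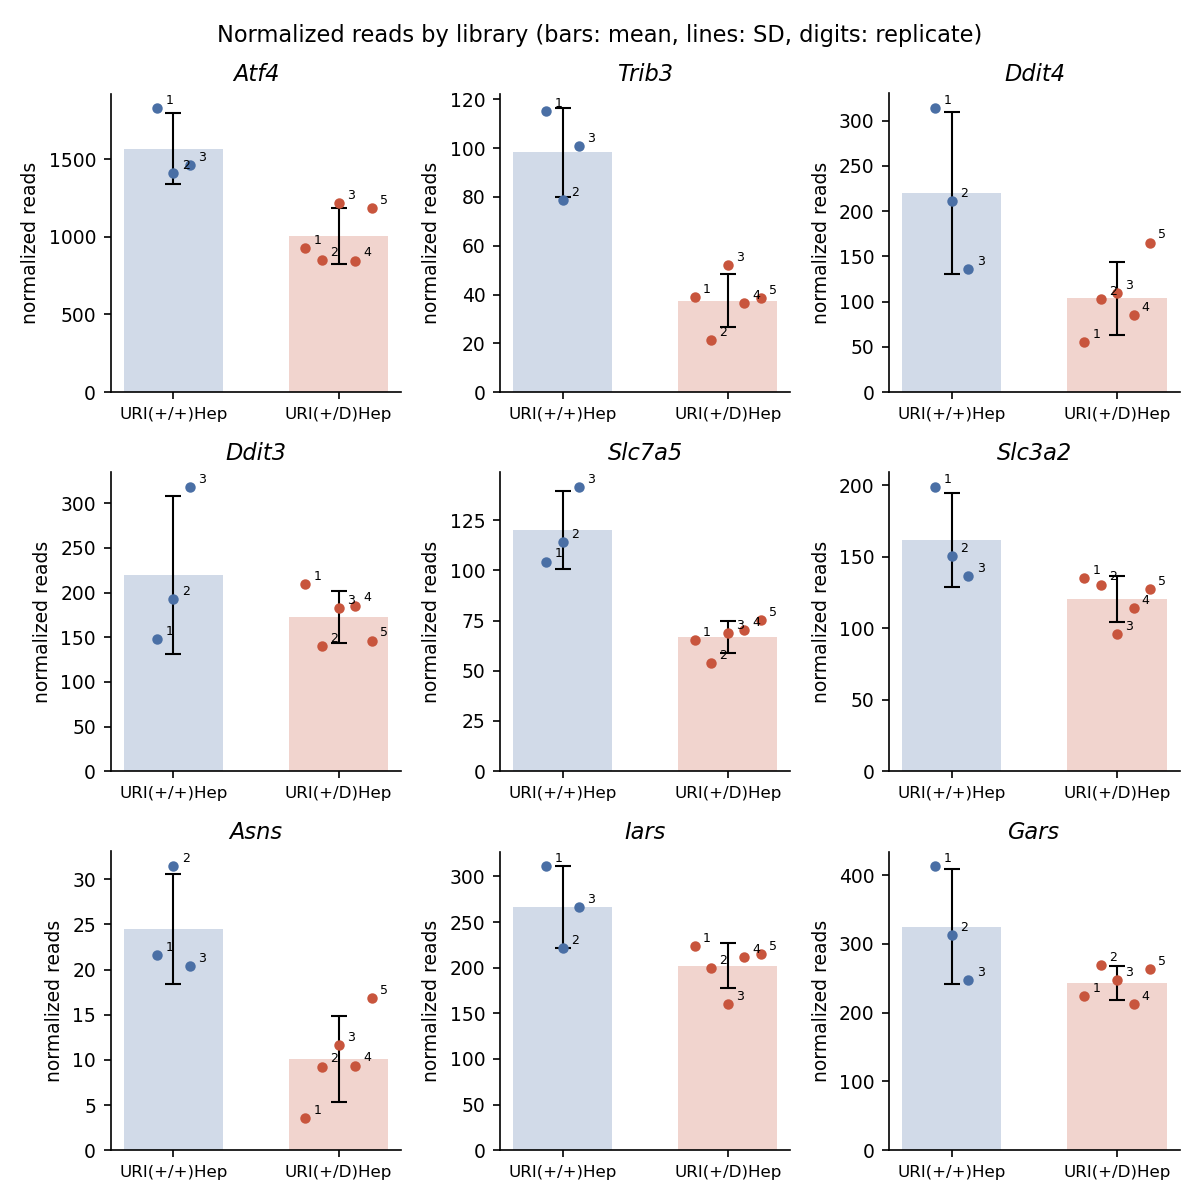
Normalized reads (y axis, from 0) of 9 members in 3 URI(+/+)Hep and 5 URI(+/D)Hep libraries, with dots for libraries, digits for the replicate number, bars for means and lines for SD. The groups do not overlap for Atf4, Trib3, Slc7a5, Slc3a2 and Asns, and they overlap for Ddit4, Ddit3, Iars and Gars.

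Of the 7 amino acid transporters, the groups did not overlap for 2, Slc7a5 and Slc3a2. Slc7a5 encodes LAT1, which carries leucine and other large neutral amino acids, and Slc3a2 encodes the heavy chain 4F2hc that brings it to the membrane. Slc7a5 stood at 104, 114 and 142 in controls and at 65.4, 53.7, 68.6, 70.3 and 75.2 in URI(+/D)Hep livers. The gap between the groups was wide against the spread within them, at 0.555 times the control mean (log2 fold change -0.84, SE 0.16, limma adjusted p = 0.109, and DESeq2 adjusted p = 0.00322). Slc3a2 stood at 199, 151 and 136 in controls and at 135, 131, 95.7, 114 and 128 in URI(+/D)Hep livers. Its groups were separated by a narrow margin, 136.2 in control 3 against 135.2 in URI(+/D)Hep 1 (log2 fold change -0.41, SE 0.17, limma adjusted p = 0.249), and without control 1 the log2 fold change was -0.26.

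The other 5 transporters gave no such separation. Slc1a5, the glutamine transporter ASCT2, was the only transporter with a positive log2 fold change, 0.40 (48.9 ± 1.34 against 65.8 ± 13.2, limma adjusted p = 0.309). Slc38a2, the SNAT2 carrier of small neutral amino acids, stood at 713 ± 86.4 against 623 ± 45.1. Slc7a1, a carrier of arginine and lysine, stood at 95.6 ± 17.6 against 91.4 ± 44.7, with the lowest and the highest library both among URI(+/D)Hep livers (48.6 in replicate 1 and 165 in replicate 5).

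Slc1a4 and Slc7a11 varied more between livers of the same genotype than between the genotypes. Slc1a4, a carrier of alanine, serine and cysteine, stood at 33.6, 86.6 and 137 in controls and at 115, 73.1, 27.1, 125 and 28.7 in URI(+/D)Hep livers. Slc7a11, the cystine and glutamate exchanger xCT, stood at 50.4, 41.4 and 6.44 in controls and at 12.4, 34.3, 36.7, 6.56 and 46.5 in URI(+/D)Hep livers. Control 3 and URI(+/D)Hep 1 and 4, the 3 libraries highest for Slc1a4, were the 3 lowest for Slc7a11. They were also the 3 libraries with the highest summed mitosis transcripts, at 5690.2, 4903 and 4999, an observation made after seeing the values and not tested.

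Among the enzymes, Asns, which makes asparagine and is the classic gene with an amino acid response element (printed above), was low in every library. It stood at 21.6, 31.5 and 20.4 in controls and at 3.54, 9.26, 11.6, 9.37 and 16.8 in URI(+/D)Hep livers. No URI(+/D)Hep liver reached the lowest control (log2 fold change -1.30, SE 0.43, limma adjusted p = 0.18), but values this near the 3-read level carry a large counting error, and with the Y-linked covariate the log2 fold change was -0.85. Aldh18a1, the first enzyme of proline synthesis from glutamate, stood at 19.1 ± 1.33 against 18.2 ± 6.99. Cth, which makes cysteine from cystathionine and is abundant in hepatocytes, stood at 719 ± 255 against 811 ± 199.99 (log2 fold change 0.20, limma adjusted p = 0.733).

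Among the 12 listed synthetases and Xpot, the exportin that carries tRNAs out of the nucleus, differences were small and mostly in the same direction. Of the 13 genes 10 had a negative log2 fold change, all 13 lay between -0.39 and 0.12, and their median was -0.19. The groups overlapped for each of the 13. Iars, which charges isoleucine tRNA, stood at 312, 222 and 266 in controls and at 224, 200, 160.4, 212 and 215 in URI(+/D)Hep livers, where URI(+/D)Hep 1 just exceeded control 2 (log2 fold change -0.39, SE 0.15, limma adjusted p = 0.233). Gars, the glycine enzyme, stood at 414, 313 and 248 in controls and at 225, 269, 247, 213 and 263 in URI(+/D)Hep livers, so that only controls 1 and 2 exceeded the other group (log2 fold change -0.39, SE 0.17, limma adjusted p = 0.272). Without control 1 the log2 fold change of Gars was -0.20, and in the 5 libraries with reads of both Xist and Y-linked genes it was -0.004.

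The others gave no unadjusted p under 0.05. Sars (serine), Aars (alanine), Lars (leucine), Yars (tyrosine), Tars (threonine) and Cars (cysteine) had log2 fold changes of -0.23, -0.23, -0.21, -0.19, -0.14 and -0.12. Single controls weighed on these, with Sars at -0.15 without control 2, Lars at -0.08 without control 1, and Aars and Yars at -0.11 and -0.11 without control 3. Wars, the tryptophan enzyme, which interferon also induces, stood at 138, 100.4 and 59.0 in controls and between 62.0 and 86.0 in URI(+/D)Hep livers, so that control 3 was the lowest of the 8. Mars1, the methionine enzyme, differed little from library to library (462 ± 16.3 against 443 ± 13.5, log2 fold change -0.06, 95% interval -0.25 to 0.13). Eprs, which charges both glutamate and proline tRNAs, stood at 1318 ± 152 against 1428 ± 143, and Nars, the asparagine enzyme, at 1384 ± 195 against 1467 ± 170 (log2 fold changes 0.12 and 0.09). Xpot stood at 409 ± 78.0 against 412 ± 68.4. Exons of Aars overlap Exosc6 on the same strand, and those of Yars a protein-coding gene on the opposite strand, so reads of these may be shared. In all, exons of 8 members overlap another gene, 6 of them a protein-coding one. Besides Ddit3, Mars1, Aars and Yars these are Atf5 and Ppp1r15a (protein-coding genes on the opposite strand) and Cebpg and Cars (no protein-coding gene).

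The last 2 members have other functions. Stbd1, a glycogen-binding membrane protein, stood at 56.4, 75.8 and 102 in controls and between 33.8 and 69.3 in URI(+/D)Hep livers (log2 fold change -0.65, SE 0.30, limma adjusted p = 0.295). Vldlr, a lipoprotein receptor that ATF4 is known to induce in liver under stress, was near the detection level, at 7.502 ± 3.76 against 12.4 ± 5.52 (log2 fold change 0.63, SE 0.45, limma adjusted p = 0.494).

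As means over the set, whose genes were chosen with earlier results of these data known, the libraries of the 2 groups lay apart. On the log2(value + 1) scale, the mean of the 34 genes was 0.19, 0.17 and 0.17 above its mean over all libraries in controls 1 to 3, and -0.15, -0.13, -0.14, -0.09 and -0.01 in URI(+/D)Hep 1 to 5. In this mean the 3 controls lay close together. Single members did not share that closeness, since control 1 was the highest library for 13 members and control 3 for 10, against 2 for control 2. Control 1 differed from the other controls in mitosis transcripts and control 3 in Xist, and their part in these means was not tested. The 9 regulators also lay apart by group (0.27, 0.27 and 0.44 against -0.41 to -0.02), as did the synthetases and Xpot (0.04 to 0.19 against -0.14 to 0.01), while the transporters overlapped. The median log2 fold change of the 34 genes was -0.22 with the share of Y-linked reads as a covariate, -0.23 with the mitosis covariate and -0.22 in the 5 libraries with reads of Xist and of Y-linked genes alike, of which control 3 is the single control and is taken to vary like the other group.

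**Figure D4:**
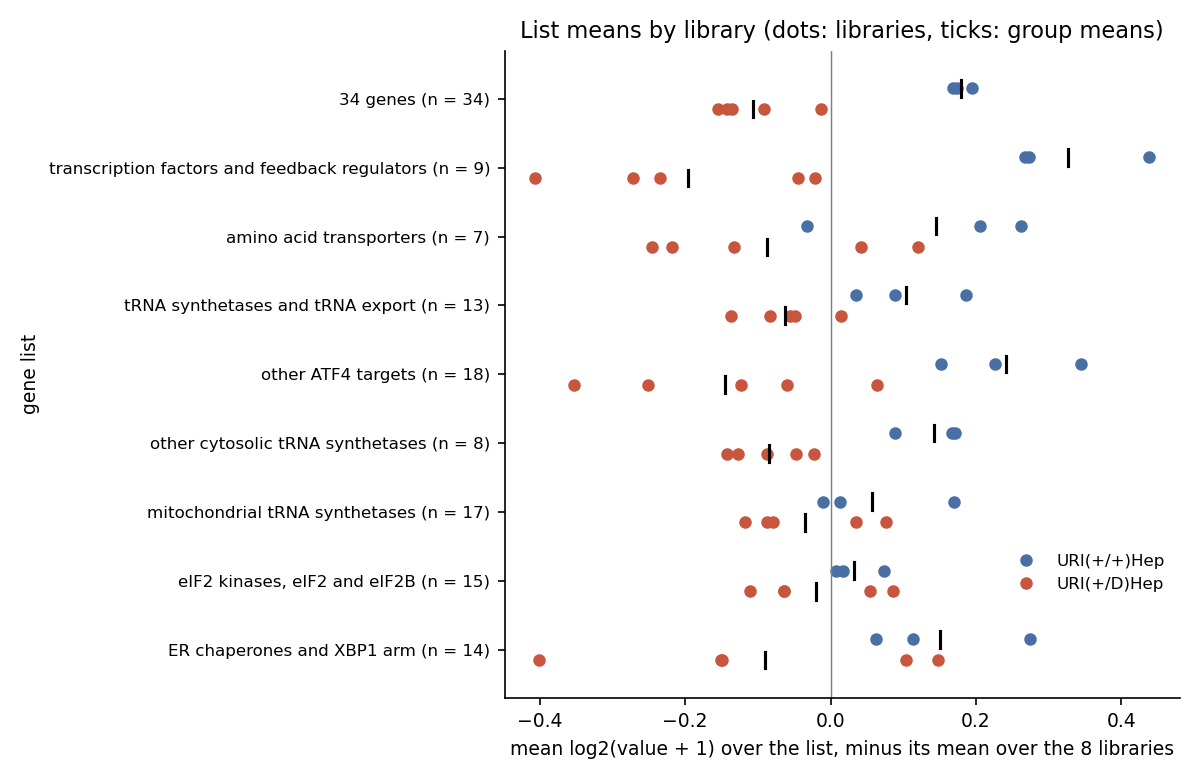
Mean log2(value + 1) over each gene list, minus its mean over the 8 libraries (x axis), for 3 URI(+/+)Hep and 5 URI(+/D)Hep libraries (dots), with ticks for group means. The 34 genes lie between 0.17 and 0.19 in controls and between -0.15 and -0.01 in URI(+/D)Hep livers. The groups overlap for the amino acid transporters, the mitochondrial synthetases, the eIF2 list and the chaperone and XBP1 list.

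Other ATF4 targets, on a list of 23 genes outside the set, showed the same sign more often than the opposite. This list, like those that follow, was also chosen with earlier results of these data known, so it is no independent evidence. Among the 18 tested, 16 were negative and the median log2 fold change was -0.41. Limma called 0 lower and 0 higher, and edgeR called Psat1 lower (adjusted p = 0.0453). DESeq2 called Psat1, Eif4ebp1 and Herpud1 lower, out of 14 to which it gave an adjusted p. The groups did not overlap, with URI(+/D)Hep lower, for 3 of the 18. Over all genes tested the share was 7.30% lower by non-overlap, and DESeq2 called 4.10% lower of the 9171 genes to which it gave an adjusted p. These shares stand behind the counts for the lists that follow as well. Psat1, of serine synthesis, stood at 207, 145 and 133 against 38.6 to 58.0 (log2 fold change -1.68, limma adjusted p = 0.0608), Pck2, the mitochondrial form of phosphoenolpyruvate carboxykinase, at 73.1 ± 14.9 against 43.9 ± 7.29, and Herpud1, of the degradation of endoplasmic reticulum proteins, at 2563 ± 612 against 1799.9 ± 156. Phgdh and Slc7a3 were not analysed here, and Aldh1l2, Pycr1 and Chac1 did not pass the filter. The core motif was present in windows of 7 of 20 matched genes (Pycr1, Chac1, Fgf21, Pck2, Herpud1, Jdp2 and Atf3). Psat1 and Eif4ebp1 are not among them.

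Outside the set, 8 other cytosolic synthetases were tested, and limma and edgeR called 0 of them. Of these 8, 7 were negative and the median log2 fold change was -0.34, against -0.19 for the 13 listed genes. Farsa, a phenylalanine subunit, stood at 741 ± 36.1 against 522 ± 87.4 (log2 fold change -0.52), Hars, the histidine enzyme, at 340 ± 41.1 against 254 ± 15.7 (-0.41), and Qars, the glutamine enzyme, at 121 ± 9.14 against 90.3 ± 7.29 (-0.41), with no overlap of the groups. Dars, the aspartate enzyme, lay on the other side without overlap, at 164 ± 39.4 against 230 ± 17.4 (log2 fold change 0.51). DESeq2 called Farsa and Hars lower, and limma gave these 4 genes adjusted p-values between 0.133 and 0.176. Kars, the lysine enzyme, also lay lower without overlap, at 151 ± 4.63 against 128 ± 7.22 (log2 fold change -0.24, limma adjusted p = 0.281). Of the 3 scaffold genes of the multi-synthetase complex, Aimp2 stood at 114 ± 5.21 against 88.2 ± 11.1 without overlap (log2 fold change -0.38, limma adjusted p = 0.215).

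Mitochondrial synthetases, which serve a separate translation system, had 11 of 17 negative values and a median of -0.09. Sars2, the serine enzyme of mitochondria, lay higher in every URI(+/D)Hep liver (17.4 ± 2.74 against 28.5 ± 2.19, log2 fold change 0.69, limma adjusted p = 0.147). So did Fars2 and Nars2 (log2 fold changes 0.19 and 0.28). Of the 17 genes, 3 were thus higher without overlap and 0 lower, against 6.13% and 7.30% of all genes. The difference between the lists was not tested.

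Upstream of ATF4, the 15 genes of the eIF2 kinases, eIF2 and its exchange factor eIF2B had a median of 0.03, with 6 negative values. The kinases Eif2ak1, Eif2ak2, Eif2ak3 and Eif2ak4 (HRI, PKR, PERK and GCN2) had log2 fold changes of 0.15, -0.15, 0.10 and 0.30, all with overlapping groups. Eif2s2, the beta subunit of eIF2, stood at 3109 ± 202 against 2515 ± 172, and Eif2b1, the alpha subunit of eIF2B, at 131 ± 8.26 against 93.8 ± 14.8, both without overlap (log2 fold changes -0.31 and -0.49). DESeq2 called Eif2s2 lower (adjusted p = 0.0496), while limma and edgeR called 0 of the 15 genes. Phosphorylation of eIF2 and the translation of the Atf4 mRNA are not seen in these data.

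In the neighbouring branches of the unfolded protein response, 12 of 14 chaperone and XBP1 genes were negative and the median log2 fold change was -0.24. The means over this list overlapped between the groups (0.06 to 0.27 in controls against -0.40 to 0.15). Xbp1, the factor of the IRE1 branch, stood at 867 ± 221 against 561 ± 56.9 (log2 fold change -0.60), Sdf2l1 at 193 ± 17.0 against 125 ± 28.5 (-0.65) and Pdia6 at 1703 ± 88.7 against 1265 ± 238 (-0.45), each without overlap. Pdia4, a disulphide isomerase like Pdia6, lay on the other side, at 580.3 ± 72.1 against 875 ± 138 (0.59, limma adjusted p = 0.12). DESeq2 called Xbp1 lower and Pdia4 higher.

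**Figure D5:**
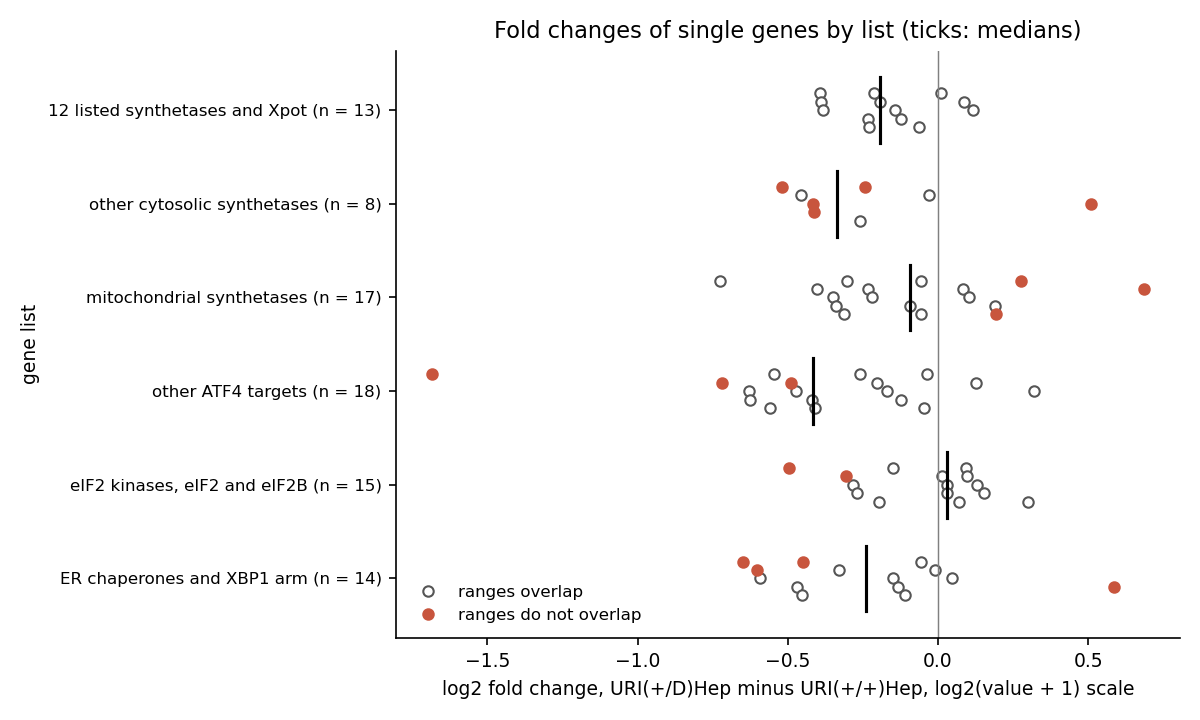
Log2 fold change (x axis, log2(value + 1) scale, URI(+/D)Hep minus control) of single genes in 6 lists, with ticks for list medians and filled dots where the 3 control and 5 URI(+/D)Hep libraries do not overlap. The medians run from -0.41 for other ATF4 targets to 0.03 for the eIF2 list.

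Whole liver was sequenced, and in bulk RNA a smaller number of cells of a type cannot be told apart from less RNA per cell. Sinusoidal endothelial markers (5 genes) summed to between 1476 and 1901 in controls and between 1992 and 2177 in URI(+/D)Hep livers, without overlap, and Kupffer cell markers (5 genes) to between 1595 and 3344 and between 2508 and 4399. Stellate cell markers (6 genes) summed to between 1485 and 1579 against 1418 to 1740. Cholangiocyte markers (5 genes) summed to 1643, 1051 and 245 in controls against 220.1 to 886, where 525 of the 886 in URI(+/D)Hep 5 was Epcam. Of these markers Sox9 (631 ± 509.6 against 140.01 ± 25.2) and Spp1 (311 ± 189 against 118 ± 19.03) were called lower by DESeq2 and not by limma (adjusted p = 0.20 and 0.235), with control 3 inside the range of the other group for Spp1 and Sox9. Neutrophil markers (5 genes) summed to 970.2, 931 and 478 against 255 to 810. Lymphocyte markers (3 of 4 genes in the table) summed to between 2.40 and 28.6 against 24.2 to 36.5, and no marker of these lists was at 0 in all libraries. Their part in the values of the 34 genes was not tested.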

How the data were processed

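Per the labels' protocols, libraries were made from total RNA with oligo-dT priming and a 6 nt molecular identifier, keeping strand. Per the submitters' processing notes, bcl2fastq, featureCounts, DESeq2 and the build GRCm39 were used. The sources used here do not give the aligner, the annotation, the strand setting or the use of the identifiers. The table deposited by the authors holds normalized signal, in which each library is whole reads times a constant. Division by the smallest value above 0 gave whole numbers (tolerance 1e-06) for 100% of values in each library. That value was 0.989 in URI(+/D)Hep 5 and 0.985 in control 2, both close to 1. Whether it stands for a single read was not checked in another way.

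Limma 3.58.1 (R 4.3.3, mean-variance trend) was fitted to log2(value + 1) over the 13704 genes that reached a value of 10 in 3 or more libraries, with Benjamini-Hochberg adjustment over all of them. Folds on this scale understate the change of low genes. The alternatives included edgeR 4.0.16 and DESeq2 1.42.0 on recovered reads, covariates, a replicate block and leaving out libraries. The limma step was tested on simulated data. Every pair of libraries within a group differed by more than counting noise.

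The members and gene lists were chosen with earlier results of these data known. All members are named. Values per library are given for Atf4, Trib3, Asns, Ddit3 and members whose groups did not overlap or whose unadjusted p was under 0.05, and for a few others after their values were seen. From each other list up to 4 genes without overlap and with an unadjusted p under 0.05 are named, and a few others, such as Kars, Fars2 and Nars2, after their values were seen. Promoters are printed for the 6 members with the motif and the smallest p.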

Additional observations from a re-analysis of the deposited data

Results flagged for a closer look

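Xpot in URI(+/D)Hep 3 stood at 294.8 normalized reads, below the other 4 livers of its group, which lay between 419 and 464. The gap was 0.777 of the group's range on the log2(value + 1) scale, above Dixon's critical value. Of 35 genes looked at in this way 1 was flagged, and chance flags about 1 in 20 groups.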

How the results depend on the processing

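Over 23 alternatives the median log2 fold change of the 34 genes stayed between -0.26 and -0.18, and between 22 and 28 of the members tested were negative (22 of 28 at a mean of at least 50). Members called lower numbered 0 in all but 3 of these, namely 4 with the mitosis covariate, 3 with DESeq2 and 4 with DESeq2 on 7 libraries (chosen after seeing the data, leaving out URI(+/D)Hep 5). Leaving out each library in turn gave 5 to 9 members lower at an unadjusted p under 0.05 and a median of -0.2588 to -0.1824, the latter without control 3. The replicate block gave 0 called members, 6 at an unadjusted p under 0.05 and a median of -0.25. It drops URI(+/D)Hep 4 and 5. Same-numbered libraries correlated at -0.40, -0.04 and -0.27 over all genes tested, as deviations from their group means. So few pairs cannot settle whether same-numbered libraries were paired.

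Several genes changed sign, some of them near 0 (Uri1, Xpot, Nars) and others not (Wars at -0.38, Vldlr at 0.63, Ddit3 at -0.29 and Slc1a4 at -0.28 in all libraries), and the cause was not tested. Log2 fold changes were -0.0046 for Uri1 and -0.0063 for Xpot with TMM recentring, and -0.0035 for Uri1 with edgeR. On 7 libraries Uri1 and Xpot stood at -0.0195 and -0.0306 in edgeR and at -0.0125 and -0.0222 in DESeq2. With the replicate block Nars, Xpot and Slc7a11 stood at -0.0227, -0.0685 and 0.0457. With the Y-linked covariate Xpot, Slc7a1, Slc7a11 and Aldh18a1 stood at -0.0276, 0.1921, 0.7301 and 0.0159. Slc7a11 stood at 0.1468 with the mitosis covariate and at 0.1096 without control 1 and URI(+/D)Hep 5. In the 5 libraries with Xist and Y-linked reads Wars, Lars, Slc7a1, Slc7a11 and Vldlr stood at 0.2915, 0.0951, 0.3321, 1.8215 and -0.2076. Leaving out 1 library at a time gave ranges of -0.1323 to 0.1635 for Uri1, -0.3541 to 0.0386 for Cars, -0.031 to 0.1719 for Nars, -0.0794 to 0.1606 for Xpot, -0.4116 to 0.0244 for Slc7a1, -1.0224 to 0.3716 for Slc7a11, -0.0598 to 0.4595 for Cth, -0.5356 to 0.0174 for Ddit3, -0.834 to 0.166 for Slc1a4 and -0.295 to 0.0188 for Aldh18a1. Members near 3 reads, such as Asns and Vldlr, are measured least precisely.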
